A study of Mus musculus with 12 samples.

Results

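The genes described here are 5 keratins of simple epithelia (Krt7, Krt8, Krt18, Krt19 and Krt20) and 5 parts of the desmosome (Dsp, Dsg2, Dsc2, Pkp2 and Jup), 10 of the 19938 genes measured on the arrays. They were chosen by their place in these structures and selected on log2 values of the same arrays that had already been examined at every day. Their levels and changes are therefore given as a description, without p-values. Each of the 10 genes was read by 1 probe set that carries that gene symbol alone.

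Messenger RNA came from mouse embryonic stem cells of the line Esrrb_R, labelled as an AINV15 Esrrb rescue clone, and was hybridised to 12 arrays of the Affymetrix Mouse Gene 1.0 ST design, with 3 biological replicates at each of 4 days. The cells carry rtTA, a constant short hairpin RNA against the endogenous Esrrb, and a GFP-tagged Esrrb that escapes the hairpin and is made only in the presence of doxycycline (Dox). The day 0 group was kept in 1 µg/ml Dox, and the day 1, day 3 and day 5 groups had been without it for that many days, all in serum with Lif on gelatin. All 4 groups share the hairpin, no group had Dox removed without losing Esrrb, and the line is a derived rescue clone, so the loss of Esrrb, the removal of Dox and time in culture cannot be told apart. Values are log2 signals from the Robust Multichip Average (RMA) of the authors, which rank the arrays for 1 gene and do not rank genes against each other. Esrrb itself stood at 11.59 ± 0.05 on day 0, 9.13 ± 0.04 on day 1, 8.20 ± 0.14 on day 3 and 8.19 ± 0.08 on day 5 (SD, n = 3 each). Of 10 markers of embryonic stem cells, such as Pou5f1, Sox2 and Nanog, 9 were lower and none was higher on day 5, against 17.6% and 17.4% of all genes. The mean log2 signal of the list lay between 11.63 and 11.68 on the day 0 arrays and between 10.96 and 11.07 on the day 5 arrays.

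Keratins form intermediate filaments as obligate pairs of a type I and a type II chain. Krt8 and Krt18 are the first pair made in the embryo, where they mark the trophectoderm and later simple, single-layered epithelia, and Krt7, Krt19 and Krt20 are added in particular epithelia. Krt7 and Krt8 are type II chains and Krt18, Krt19 and Krt20 are type I chains. Desmosomes are the cell junctions to which these filaments are fixed. The cadherins Dsg2 and Dsc2 span the membrane, plakoglobin (Jup) and plakophilin 2 (Pkp2) bind their tails, and desmoplakin (Dsp) links that plaque to the keratins.

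Promoter sequence is shown for the 4 members with the largest day 5 changes among those with an entry in the RefSeq promoter table. The table held 6 of the 10 members and had no entry for Krt19, Dsg2, Dsc2 and Pkp2. Each line gives the 150 bases before the annotated start, 5′ to 3′ on the strand of the gene, of build GRCm38.p6, and capitals mark the motifs named after the lines. The Krt7 stretch is chr15:101412253-101412402 on the plus strand, that of Krt8 is chr15:102004343-102004492 on the minus strand, that of Krt18 is chr15:102028066-102028215 on the plus strand, and that of Dsp is chr13:38151144-38151293 on the plus strand.
Krt7: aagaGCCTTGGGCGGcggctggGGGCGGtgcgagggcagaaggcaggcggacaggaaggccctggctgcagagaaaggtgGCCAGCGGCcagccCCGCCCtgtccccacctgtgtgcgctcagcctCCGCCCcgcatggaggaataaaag
Krt8: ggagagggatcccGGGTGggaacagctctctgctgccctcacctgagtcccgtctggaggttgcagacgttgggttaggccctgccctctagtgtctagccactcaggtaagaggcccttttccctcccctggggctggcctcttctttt
Krt18: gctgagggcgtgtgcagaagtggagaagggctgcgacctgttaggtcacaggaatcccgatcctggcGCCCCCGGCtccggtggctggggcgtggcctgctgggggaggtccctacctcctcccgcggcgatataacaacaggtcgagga
Dsp: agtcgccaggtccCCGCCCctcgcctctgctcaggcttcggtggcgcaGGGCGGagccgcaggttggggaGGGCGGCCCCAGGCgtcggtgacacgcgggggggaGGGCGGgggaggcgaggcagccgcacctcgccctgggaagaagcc

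The 250 bases before each start were searched on both strands for TATAAA (the TATA box), GGGCGG (the GC box bound by Sp factors), TGANTCA (Jun and Fos factors), AAGGTCA (the core of the Esrrb motif), GCCNNNGGC (Tfap2 factors), AACNGGTT (grainyhead-like factors), CACCC (Klf factors) and TTCCGG (Ets factors). A GC box was found before Krt7, Dsp and Jup, and 32.7% of all 32851 windows of this length hold one. The Tfap2 letters were found before Krt7, Krt18 and Dsp (13.7% of all windows), overlapping a GC box in Krt7 and sharing a base with one in Dsp. The Esrrb core was found before Krt20 alone of the 6 members (4.08% of all windows), where it shares its first base with a TATA box. The Klf letters, found before Krt7, Krt8, Krt18, Krt20 and Jup, are present in 52.0% of all windows. None of the 6 windows held the Jun and Fos, grainyhead-like or Ets letters, which says nothing about binding of those factors elsewhere.

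Of the 5 keratins, 4 rose steeply, Krt19 from day 1 on and the others later, and Krt20 changed by 0.35 on the log2 scale. Krt19, Krt18, Krt7 and Krt8 were 8.15, 5.67, 3.45 and 3.22 times their day 0 signal on day 5. For each of them the step from day 3 to day 5 was the largest of the 3 intervals, the first of which is the shortest. Krt19 was ahead of the others, with 45.2% of its day 5 change present on day 3, against 26.0% for Krt18, 12.0% for Krt8 and 10.2% for Krt7. With single arrays left out, the share ran from 43.9% to 47.0% for Krt19 and from 24.7% to 27.3% for Krt18. It was 18.1% for Krt8 without day 0 replicate 3 and 7.95% without day 0 replicate 2, and 5.91% for Krt7 without day 0 replicate 1, so these last shares rest on single day 0 arrays. In RNA of whole cultures, more cells with keratin RNA and more keratin RNA per cell cannot be told apart.

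Krt19, the smallest keratin, had log2 signals of 8.37, 8.50 and 8.63 on the day 0 arrays, 8.96, 9.02 and 8.91 on day 1, 9.94, 9.75 and 9.90 on day 3, and 11.52, 11.48 and 11.57 on day 5. The arrays of each day lay above all arrays of the day before, with no overlap at any step. The log2 change against day 0 was 0.46 on day 1, 1.37 on day 3 and 3.03 on day 5 (standard error, SE, 0.07 from the limma fit).

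Krt18, the type I partner of Krt8, read 9.76, 9.76 and 9.89 on day 0 and 9.86, 9.88 and 9.99 on day 1. It read 10.46, 10.39 and 10.52 on day 3 and 12.41, 12.22 and 12.29 on day 5. The day 0 and day 1 arrays overlapped, and days 3 and 5 each stood apart from the days before. Its change against day 0 was 0.10 on day 1, 0.65 on day 3 and 2.50 on day 5 (SE 0.07).

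Krt8, the type II chain of that pair, moved less than its partner. Its log2 signals were 11.33, 11.29 and 11.69 on day 0, 11.27, 11.34 and 11.40 on day 1, 11.66, 11.55 and 11.70 on day 3, and 13.21, 13.03 and 13.13 on day 5. Day 0 replicate 3 was high and overlapped the day 3 arrays, while every day 5 array lay above all others. The change was -0.10 on day 1, 0.20 on day 3 and 1.69 on day 5 (SE 0.10), and without day 0 replicate 3 the first of these turned to 0.03 and that on day 3 was 0.33.

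Krt7, a type II chain of ducts and trophectoderm, stood at 7.41, 7.64 and 7.67 on day 0, 7.62, 7.61 and 7.72 on day 1, and 7.70, 7.83 and 7.74 on day 3. On day 5 it read 9.48, 9.25 and 9.35. The days before day 5 lay close together, though every day 3 array was above every day 0 array (change 0.18). The day 5 arrays were well clear of all earlier ones (change 1.79, SE 0.08). Krt20, a type I chain of gut and bladder epithelium, was dim on every array, with 5.97, 5.91 and 5.92 on day 0, 5.60, 5.87 and 5.90 on day 1, 5.68, 5.87 and 5.70 on day 3, and 6.48, 6.21 and 6.17 on day 5. Its day 5 arrays were above all others, led by replicate 1, and the change of 0.35 (SE 0.10) was 0.25 without that array.

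**Figure D1:**
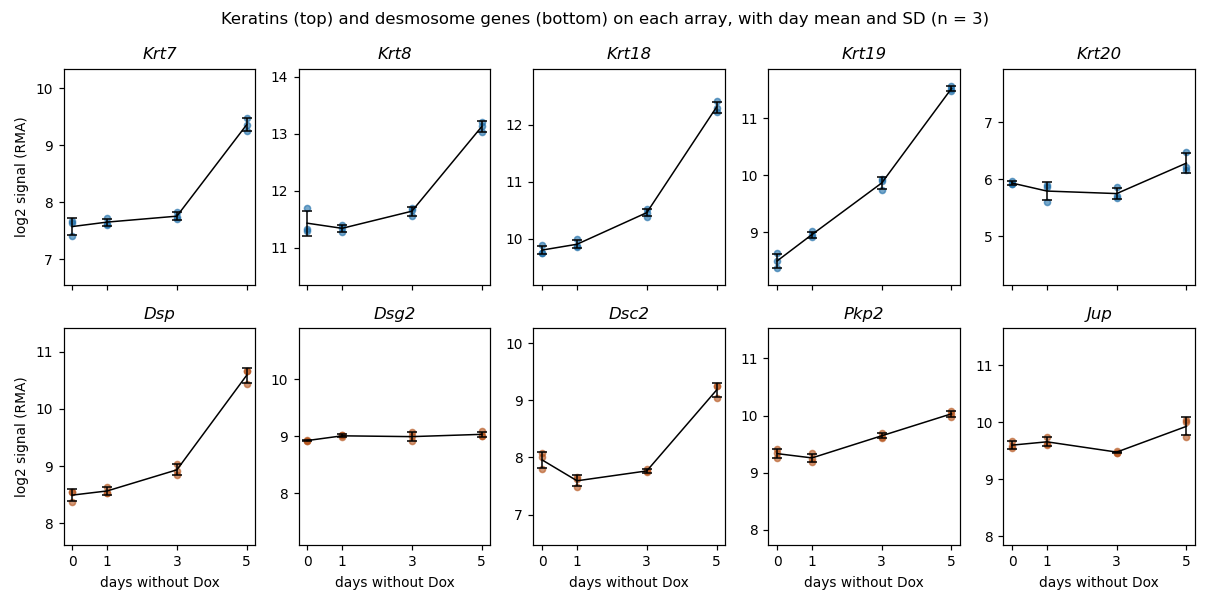
Log2 RMA signal against days without Dox for each of the 5 keratins (top row) and 5 desmosome genes (bottom row), with a point per array and a line through the day means with SD (n = 3); the y axes all have equal height in log2 units. Krt19 climbs at every step to 11.52 on day 5, Krt18 and Dsp rise from day 1 and more steeply after day 3, Krt7, Krt8 and Dsc2 have nearly all of their rise after day 3, and Dsg2 stays near 9.

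Among the desmosome genes, the filament linker and 1 of the cadherins rose most. Dsp was 4.28 times its day 0 signal on day 5 and Dsc2 2.34 times, whereas Pkp2, Jup and Dsg2 were at 1.63, 1.26 and 1.08 times. The cadherins Dsc2 and Dsg2, which lie in the same gene cluster on chromosome 18, moved unequally.

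Dsp, the plakin that joins the plaque to keratin filaments, read 8.55, 8.37 and 8.54 on day 0, 8.64, 8.53 and 8.53 on day 1, 8.85, 8.92 and 9.03 on day 3, and 10.67, 10.44 and 10.66 on day 5. Days 3 and 5 each lay above all earlier arrays. The change was 0.44 on day 3 and 2.10 on day 5 (SE 0.08), with 21.1% of the day 5 change present on day 3.

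Dsc2 fell before it rose. Its log2 signals were 8.07, 8.0 and 7.79 on day 0, 7.63, 7.48 and 7.66 on day 1, 7.79, 7.74 and 7.76 on day 3, and 9.25, 9.04 and 9.26 on day 5. Every day 1 array lay below every day 0 array, the day 3 arrays reached up to the lowest day 0 array, and the day 5 arrays stood above all others. The change was -0.36 on day 1, -0.19 on day 3 and 1.23 on day 5 (SE 0.08). The day 1 value was -0.31 without day 0 replicate 1 and -0.31 without day 1 replicate 2.

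Dsg2, the desmoglein of simple epithelia and heart, hardly moved, with 8.92, 8.94 and 8.92 on day 0, 9.02, 9.03 and 8.98 on day 1, 9.08, 8.91 and 9.0 on day 3, and 9.01, 9.01 and 9.09 on day 5. The day 5 arrays were above those of day 0 by a small margin and overlapped those of days 1 and 3. The change on day 5 was 0.11 (SE 0.06).

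Pkp2, the armadillo protein that gathers Dsp at the plaque, had 9.34, 9.41 and 9.25 on day 0, 9.34, 9.24 and 9.19 on day 1, 9.61, 9.63 and 9.69 on day 3, and 10.03, 9.98 and 10.08 on day 5. It rose by like amounts in both later intervals (0.39 from day 1 to day 3 and 0.39 from day 3 to day 5, SE 0.06), and no array of days 3 and 5 overlapped the earlier ones. Jup, which also binds classical cadherins, had 9.58, 9.68 and 9.55 on day 0, 9.62, 9.61 and 9.75 on day 1, 9.49, 9.47 and 9.47 on day 3, and 10.00, 9.75 and 10.04 on day 5. It dipped slightly on day 3, where its arrays were below all others, and its day 5 change was 0.33 (SE 0.08).

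**Figure D2:**
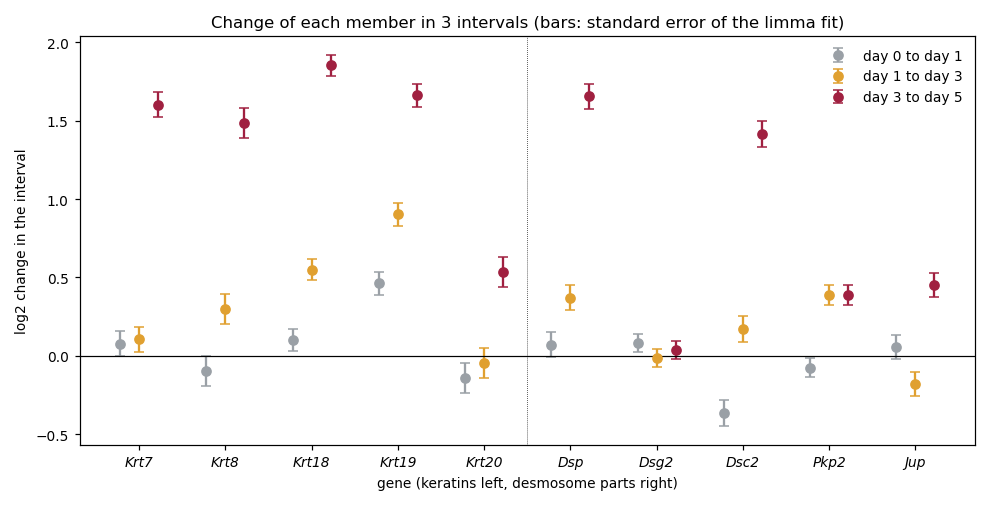
Log2 change of each member from day 0 to day 1, day 1 to day 3 and day 3 to day 5, with the SE of limma as bars. Krt7, Krt8, Krt18, Krt19 and Dsp changed by 1.49 to 1.85 and Dsc2 by 1.42 in the last interval, while Pkp2 moved equally in both later intervals.

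Counts over the members are given here for scale, and nothing is read from them, since the members were chosen on these contrasts. At an adjusted p under 0.05 from limma over all genes, 1 member (Krt19) was higher and 1 (Dsc2) lower on day 1, where 6.45% of all genes were higher and 4.48% lower. At day 3, 4 were higher (Krt18, Krt19, Dsp and Pkp2) and none was lower, against 13.5% and 13.1% of all genes. At day 5, 9 were higher and none was lower, against 17.4% and 17.6% of all genes, and the 1 that did not pass was Dsg2. Every day 5 array exceeded every day 0 array for all 10 members, as it did for 20.7% of all genes. From day 1 to day 3, 5 members were higher and none was lower (9.20% and 11.6% of all genes), and from day 3 to day 5, 9 were higher and none was lower (13.0% and 12.2% of all genes). A moderated F test over the days called 9 members and 45.6% of all genes. The median change of the 10 members was 0.07 on day 1, 0.19 on day 3 and 1.46 on day 5, and that of all genes stayed between -0.02 and 0.01. The day 1 call of Dsc2 was lost without day 0 replicate 1 or day 1 replicate 2, and the day 5 call of Krt20 without day 5 replicate 1. Krt8 lost its call from day 1 to day 3 in 7 of the 12 fits that each leave out 1 array. The count of members lower on day 3 became 1 (Dsc2) without day 0 replicate 3, and that from day 1 to day 3 became 1 (Jup) without day 5 replicate 2.

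Across the 12 arrays the log2 signals of Krt18 and Dsp ran closest together (Pearson r = 0.995), and Krt7 and Krt8 had r = 0.986. Krt19 correlated more with Pkp2 (r = 0.954) than Krt7 did (r = 0.889), and Dsg2 had at most r = 0.571 with any other member. These values describe 12 arrays that share 4 days, so 1 late step common to the genes is enough to give a high r. Outside the members, and leaving out dim genes and clone symbols, the 5 genes most like Krt19 over the 12 arrays were Carhsp1 (r = 0.995), Pxdn (0.994), Rhou (0.994), Ptpra (0.993) and Clu (0.992). Those most like Dsp were the chemokine Cxcl10 (r = 0.996), the Vegf receptor Flt1 (0.993), the kinase Map4k4 (0.992), Bmp8b (0.991) and the actin crosslinker Actn1 (0.990). At day 5 Cxcl10 stood 2.15 and Flt1 2.26 above day 0 on the log2 scale.

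Of 47 other keratin genes on the arrays, 5 were higher and 1 was lower on day 5, where 17.4% of all genes were higher and 17.6% lower, and their median change was -0.02. None of them changed by more than 2-fold in either direction. Krt23, a type I keratin, rose by 0.57 (SE 0.12, adjusted p = 0.0017 from limma), Krt17, a basal and stress-induced keratin, by 0.26 (adjusted p = 0.017) and Krt74, a hair follicle keratin, by 0.24 (adjusted p = 0.017). Krt42 went the other way, from 8.22 ± 0.01 on day 0 to 7.51 ± 0.05 on day 5 (SD, n = 3 each), a change of -0.70 (SE 0.06, adjusted p = 9.5e-07 from limma), and it was already lower on day 1 (-0.37, adjusted p = 0.0014). Krt17 was highest on day 1, with a change of 0.54 (adjusted p = 6.5e-04 from limma). The calls of Krt17 and Krt74 on day 5 did not hold under every alternative, and Krt17 lost its call (adjusted p = 0.082) without day 0 replicate 1 and (0.062) without day 5 replicate 2, and Krt74 without day 0 replicate 3 (0.057). The count of 5 fell to 3 without day 0 replicate 1 and without day 0 replicate 2, and that of 1 rose to 2 without either of them and without day 3 replicate 1 or 2.

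Krt7, Krt8 and Krt18 lie in the type II keratin cluster on chromosome 15, in the gene order of RefSeq, with lncRNA models alone between Krt8 and Krt18. Of the 23 other measured genes from Krt7 to Krt18, 1 was higher and none was lower on day 5, against 17.4% and 17.6% of all genes. The highest change among them was 0.24. On chromosome 11, the stretch from Krt20 through Krt19 to Jup holds 39 other measured genes, of which 3 were higher and 4 lower, with changes from -0.70 (Krt42) to 0.57 (Krt23), larger in size than those of Krt20 and Jup at the ends of the stretch. The 4 other measured genes between Dsc2 and Dsg2 on chromosome 18 did not pass the test in either direction.

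Of 8 other desmosome parts measured, 2 were higher and none was lower on day 5, against 17.4% and 17.6% of all genes. Without day 0 replicate 1, 1 was lower. The median change was -0.03. Perp, a membrane protein of desmosomes that p53 and p63 induce, went from 8.01 ± 0.04 on day 0 to 9.54 ± 0.12 on day 5 (SD, n = 3 each), a change of 1.53 (SE 0.08, adjusted p = 1.5e-08 from limma). Most of that change came after day 3, when Perp stood 0.29 above day 0 (adjusted p = 0.015), so its course was like that of Dsp. Pkp3, a plakophilin of epithelia, rose by 0.26 (adjusted p = 0.0061), and Dsg4, a cadherin of hair, was lower on day 3 alone of the 3 days (-0.27, adjusted p = 0.0085). The cadherins of stratified epithelium Dsg3 (-0.13, adjusted p = 0.23) and Dsc3 (0.19, adjusted p = 0.15) did not pass the test on day 5. Dsg1a and Dsc1 were not analysed here.

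Of 10 plakins and hemidesmosome parts, 5 were higher and 1 was lower on day 5 (median 0.13), against 17.4% and 17.6% of all genes. Periplakin (Ppl), a plakin of the epithelial cell border, rose by 0.62 (SE 0.07, adjusted p = 1.4e-05 from limma), the tetraspanin Cd151 by 0.60 (adjusted p = 2.9e-06) and epiplakin (Eppk1), which binds keratin filaments, by 0.46 (adjusted p = 3.5e-05). The linker Macf1 was lower (-0.22, adjusted p = 0.0498), a call that held in 7 of 19 alternatives and was lost in 9 of the 12 fits without 1 array, with the highest adjusted p, 0.20, without day 0 replicate 1. Dst, the linker of hemidesmosomes, was lower on day 1 (-0.46, adjusted p = 0.0094) and did not pass the test on day 5.

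Of 15 intermediate filament genes that are not keratins, 1 was higher and 3 were lower on day 5, and 17.4% of all genes were higher and 17.6% lower. Nestin (Nes), of neural progenitors, rose by 2.10 (SE 0.14, adjusted p = 1.4e-07 from limma), and had reached 1.99 by day 3. The neuronal filaments Nefh (-1.26, adjusted p = 1.9e-07), Ina (-1.13, adjusted p = 2.2e-07) and Nefl (-0.72, adjusted p = 9.8e-05) fell, while the other neuronal filaments, Nefm (0.11, adjusted p = 0.52) and Prph (0.14, adjusted p = 0.0507), did not pass the test. Vimentin (Vim), the filament of mesenchymal cells and of cultured stem cells, fell on day 3 (-0.99, SE 0.08, adjusted p = 1.2e-06) and on day 5 stood 0.05 from day 0 (adjusted p = 0.70). Lmna, a nuclear lamin, was also lower on day 3 (-0.59, adjusted p = 1.0e-04) and not called on day 5. Without day 5 replicate 2, 2 filament genes in place of 1 were higher on day 5.

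In the classical junction cadherins are tied to actin in place of keratin. Of 10 of its genes, 5 were higher and 1 was lower on day 5 (median 0.16), against 17.4% and 17.6% of all genes. E-cadherin (Cdh1) rose by 0.33 (SE 0.06, adjusted p = 5.5e-04 from limma), p120 catenin (Ctnnd1) by 0.38 (adjusted p = 1.5e-04) and Ctnnd2 by 0.46 (adjusted p = 8.2e-04), and Arvcf fell (-0.52, adjusted p = 7.1e-04). Ctnna1 and Pkp4 were lower on days 1 and 3 (between -0.19 and -0.32, adjusted p at most 0.017) and were not called on day 5. The day 1 call of Ctnna1 was lost without day 1 replicate 1 or 3 (adjusted p = 0.0526 and 0.060), and that of Pkp4 without day 0 replicate 1 or 2 or day 1 replicate 1 or 3 (at most 0.069).

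Of 11 surface proteins of simple epithelia measured, 4 were higher and 2 lower on day 1, against 6.45% and 4.48% of all genes. On day 3, 9 were higher and 1 lower (13.5% and 13.1% of all genes). On day 5, 9 were higher and none lower (17.4% and 17.6% of all genes). The medians on these days were 0.18, 0.53 and 0.84. Claudin 7 (Cldn7) rose by 1.68 on day 3 and 1.84 on day 5 (SE 0.08, adjusted p = 1.6e-08 and 4.6e-09 from limma), and claudin 6 (Cldn6) by 1.06 on day 1, 1.66 on day 3 and 1.49 on day 5 (adjusted p at most 1.3e-06). Cd24a rose by 1.21 on day 5 (adjusted p = 7.2e-08). From day 3 to day 5, 3 of the 11 rose and 1 fell, against 13.0% and 12.2% of all genes. Claudin 4 (Cldn4) was among those that rose late, at -0.36 on day 1 (adjusted p = 0.0087), 0.10 on day 3 (adjusted p = 0.40) and 0.84 on day 5 (adjusted p = 1.7e-06), and it gained 0.74 after day 3 (adjusted p = 1.4e-05). The protease St14 and claudin 3 (Cldn3) gained 0.41 and 0.37 after day 3 (adjusted p = 0.0017 and 0.0039). The mucin Muc1 was higher on day 3 (0.33, adjusted p = 0.0022), fell after it (-0.31, adjusted p = 0.0034) and did not pass the test on day 5 (0.02, adjusted p = 0.88). Whether their timing differs from that of the keratins was not tested. Spint1, an inhibitor of surface proteases, was lower on days 1 (-0.35, adjusted p = 0.011) and 3 (-0.28, adjusted p = 0.018, lost without day 0 replicate 2 or day 3 replicate 3 at 0.076 and 0.080), and did not pass the test on day 5 (-0.16, adjusted p = 0.13).

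**Figure D3:**
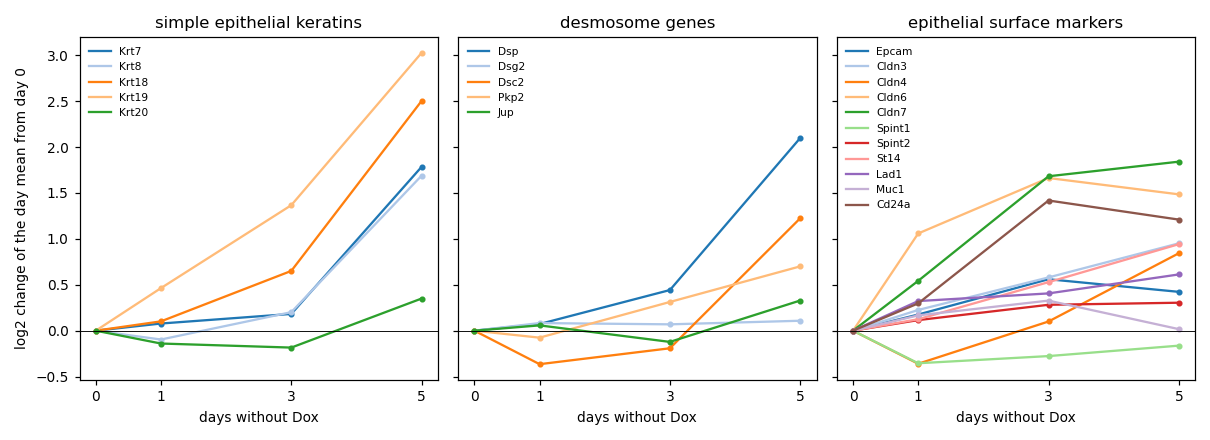
Log2 change of the day mean from day 0 against days without Dox, a line per gene, for the 5 keratins, the 5 desmosome genes and 11 measured surface markers of simple epithelia. Krt18, Krt7 and Krt8 stand at 0.65, 0.18 and 0.20 on day 3 and at 2.50, 1.79 and 1.69 on day 5, while Cldn7 stands at 1.68 on day 3 and 1.84 on day 5.

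Of 14 transcription and splicing factors of epithelia, 2 were higher and 6 lower on day 5, against 17.4% and 17.6% of all genes (median -0.07, 3 lower without day 5 replicate 3). The splicing factors Esrp1 and Esrp2 rose, by 1.51 (SE 0.06, adjusted p = 2.2e-09 from limma) and 0.43 (adjusted p = 0.0018). Grhl3 (-0.48, adjusted p = 1.2e-04), Klf4 (-0.37, adjusted p = 0.0012) and Klf5 (-0.27, adjusted p = 0.0035) were lower. The paper also places Klf4 close to Esrrb in its pluripotency network. Grhl2, a factor that maintains epithelial junction genes, was higher on day 1 alone (0.77, SE 0.07, adjusted p = 1.9e-05) and on day 5 stood at 0.05 (adjusted p = 0.64). Tfap2c was lower on day 1 (-0.35, adjusted p = 0.010) and day 3 (-0.58, adjusted p = 9.8e-05) and on day 5 was 0.19 above day 0 (adjusted p = 0.072). From day 3 to day 5, 5 of the 14 rose and 2 fell, against 13.0% and 12.2% of all genes. In that interval Tfap2c rose by 0.77 (adjusted p = 1.2e-05 from limma) and Klf4 by 0.48 (adjusted p = 3.0e-04). Grhl3 and Esrp2 each rose by 0.34 (adjusted p = 0.0027 and 0.011) and Klf5 by 0.28 (adjusted p = 0.0042). Grhl1 (-0.38, adjusted p = 0.0030) and Esrp1 (-0.20, adjusted p = 0.026) fell.

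**Figure D4:**
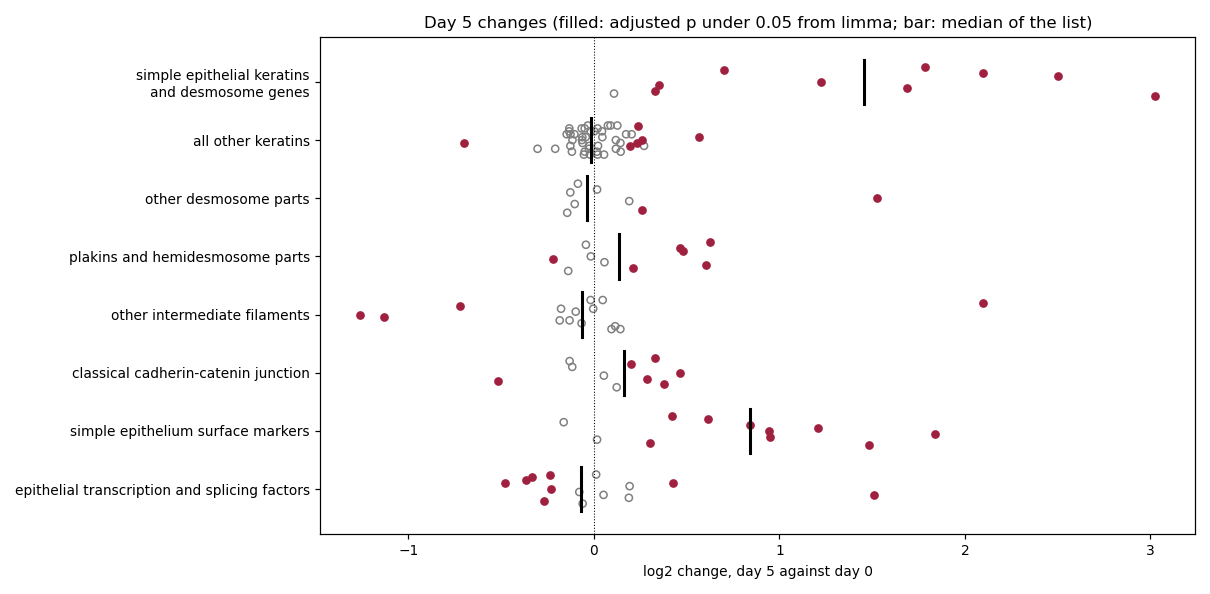
Log2 change from day 0 to day 5 of the members and of the genes of 7 related lists, a point per gene (filled where the adjusted p from limma was under 0.05) with the median of each list as a bar. The median was 1.46 for the members, -0.02 for 47 other keratins and 0.84 for 11 surface markers, and Perp stands apart among the other desmosome parts at 1.53.

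Markers of other cells that express keratins were set beside these changes. Of 10 trophectoderm genes without keratins, 2 were higher and none was lower on day 5, where 17.4% of all genes were higher. They were Gata3 by 0.74 (adjusted p = 5.0e-05 from limma) and Plac1 by 0.41 (adjusted p = 0.0030), while Cdx2 (-0.02, adjusted p = 0.83) and Elf5 (0.08, adjusted p = 0.56) did not pass the test, and the mean log2 signal of the list lay between 7.05 and 7.11 on the day 0 arrays and between 7.21 and 7.26 on the day 5 arrays. On day 3 Plac1 was higher (0.41, adjusted p = 0.0041), and Tead4 (-0.71, adjusted p = 5.9e-06) and Eomes (-0.71, adjusted p = 0.016) were lower, the latter no longer called without day 0 replicate 2 (0.058) or day 3 replicate 2 (0.0516). From day 3 to day 5, the interval of the largest step of the keratins, 4 of the 10 rose and none fell. Of all genes, 13.0% rose and 12.2% fell. The 4 were Eomes (1.10, adjusted p = 0.0010 from limma), Gata3 (0.81, adjusted p = 5.3e-05), Tead4 (0.58, adjusted p = 4.1e-05) and Gata2 (0.24, adjusted p = 0.028). Eomes varied between the day 5 arrays (SD 0.55, n = 3). Against day 0 it did not pass the test on day 5 (0.39, adjusted p = 0.15 from limma). Of 11 markers of visceral endoderm, 5 were higher and 3 lower on day 5, against 17.4% and 17.6% of all genes. Among the higher were Sox17 (0.80), Foxa2 (0.73) and Gata4 (0.59). The lower were Cubn (-1.33), Amn (-1.30) and Dab2 (-0.27), with adjusted p from limma at most 0.0032 for these 6. After day 3, 4 of these 11 endoderm markers were called as rising and 4 as falling by day 5. The mean log2 signal of that list was between 8.56 and 8.63 on day 0 and between 8.80 and 8.84 on day 1. It was between 8.62 and 8.72 on day 3 and between 8.43 and 8.63 on day 5. On day 1, 5 of the 11 were higher and none was lower, against 6.45% and 4.48% of all genes. Hnf4a was among these 5 (0.67, adjusted p = 0.0015 from limma) and did not pass the test on day 5 (-0.19, adjusted p = 0.21). Fibroblast markers, included because the line is kept on embryonic fibroblasts before the experiment, had means between 7.17 and 7.29 on day 0, 6.83 and 6.85 on day 3, and 7.03 and 7.17 on day 5. None of 12 was higher on day 5 and 1, Prrx1, was lower (-1.27, adjusted p = 5.5e-08 from limma), against 17.4% and 17.6% of all genes. In the step after day 3, however, 5 of the 12 gained signal and 1, Thy1, lost it (-0.65, adjusted p = 4.7e-04 from limma). Col1a2 (1.24, adjusted p = 1.6e-06) and Col1a1 (0.96, adjusted p = 3.2e-05) were among the 5. The part of these cell types in the rise of the keratins was not tested.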

How the data were processed

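Log2 signals of 12 arrays were used, 3 at each of days 0, 1, 3 and 5. The authors normalized them by RMA in Affymetrix Expression Console (version not given in the sources used here) and deposited 1 log2 value per probe set and array, between 1.61 and 14.69. Precision rests on the number of arrays and on how far a probe set stands above background, as no reads were counted. Of 35557 probe sets, 21789 had 1 symbol in the platform annotation, and these were averaged to 19938 genes. RefSeq identifiers matched 21698 of them and changed 0 symbols.

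All genes were fitted in 1 limma 3.58.1 model (R 4.3.3, lmFit and eBayes) with a mean per day and adjusted by Benjamini and Hochberg, with a threshold of 0.05, after a test on simulated data. The members and lists were chosen with earlier results of these data known. The related lists were written without use of values. Their adjusted p do not allow for what was already known. Genes to be named were, per list, up to 3 higher and up to 3 lower at day 5 with the smallest adjusted p, up to 3 called at day 1 or 3 and not at day 5, and the 5 most correlated with Krt19 and with Dsp. Dsg3, Dsc3, Cldn3, Cldn4, St14, Cdx2, Elf5, Gata2 and Grhl1 were named outside this rule after their values were seen. Pou5f1, Sox2 and Nanog were also named outside it, as examples of their list. Changes of list genes from day 3 to day 5 lie outside the rule too. Not every gene that the rule picked is given above. Alternatives were the replicate number as a block, the brightest probe set, no dim genes (mean under 7.33), a trended robust variance, array weights, arrays centred on their medians, the 2 days compared alone, each array left out, and the methods' analysis of variance. Python 3.11.15 with pandas 2.3.3, scipy 1.17.1 and matplotlib 3.10.9 made tables and figures. Same-numbered replicates had correlations of deviations from -0.17 to 0.07 over 18 pairs and were not treated as paired.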

Additional observations from a re-analysis of the deposited data

How the results depend on the processing

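All 567 recomputed changes of the members against day 0 moved by less than the SD between replicates. Leaving out 1 of 3 arrays cannot move a difference of day means by that much. Of the other settings, only array weights and centring can change these differences, so the bound was met almost by construction. Of 590 recomputed counts, 551 stayed within 1.5 times. With the replicate number as a block, 0 genes in place of 1 of the plakin and hemidesmosome list were lower at day 5 and 3 in place of 5 other keratins were higher, and the members' counts did not move. The plakin count was also 0 with the brightest probe set and with the 2 days alone. Without dim genes, 1 member was lower at day 3 (Dsc2) and 1 at day 3 against day 1 (Jup), 2 other filament genes were higher in place of 1, and 0 other keratins were higher, since the filter removed most of them. Array weights gave 6 members higher at day 3 in place of 4, with Krt7 and Krt8 added. They also gave 1 member lower at day 3 (Dsc2) and 2 filament genes higher. With the 2 days alone, 1 member (Jup) was lower from day 1 to day 3, 3 in place of 5 classical junction genes were higher at day 5, and 2 other keratins were higher and 2 lower. The trended variance left 3 other keratins higher, and centred arrays gave 2 lower.

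With single arrays left out, members lower numbered from 0 to 1 at day 1, from 0 to 1 at day 3 and from 0 to 1 between days 1 and 3. Related genes higher at day 1 ranged from 5 to 8 (8 with all arrays, 5 without day 1 replicate 2). At day 5, other desmosome parts lower ranged from 0 to 1, plakin genes lower from 0 to 1, other filaments higher from 1 to 2, epithelial factors lower from 3 to 6, other keratins higher from 3 to 6 and lower from 1 to 2. Krt8 from day 1 to day 3 lost its call in 7 of these fits. Causes were not tested. The methods' analysis of variance with a Bonferroni adjustment and a change over 2-fold kept 6 members and 420 genes, and 9 members and 8555 genes with Benjamini and Hochberg. Arrays this few and a dim signal limit Krt20, Dsg3, Dsg4, Dsc3 and most other keratins. Of the 63 calls picked by the naming rule, not all of them given above, 52 held in every alternative run. Calls of list genes from day 3 to day 5 and of genes named outside the rule were not among the 63.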
